A study of Mus musculus with 4 samples.

Results

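Wnt signalling genes were read from RNA-seq of mouse spermatogonia kept in culture, before and after differentiation was induced with retinoic acid (RA). The genes were taken by symbol, from a list chosen with earlier results of these data known. Every row of the deposited table named as a numbered Wnt or Fzd gene was used, together with the co-receptors Lrp5 and Lrp6, Lgr4, Lgr5, Rnf43 and Znrf3, the secretion genes Porcn and Wls, the inhibitors Dkk2, Dkk3, Sfrp1, Sfrp2, Nkd1 and Nkd2, and Ctnnb1, Axin1, Axin2, Lef1, Tcf7, Tcf7l1 and Tcf7l2. They came to 49 of 19991 gene rows, of which 18 were Wnt ligands and 10 were Frizzled receptors.

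Undifferentiated spermatogonia (SG, 2 libraries) carried the vehicle DMSO, and differentiating spermatogonia (dSG, 2 libraries) were exposed to RA for 36 h at 100 µM according to the labels, while the study's own text gives the dose in nM. Both groups were wild type and grew in StemPro34 with FGF, ESGRO, GDNF and EGF. The labels name C57BL/6, and the methods name DBA mice or their F1 with GFP mice as the source of the sorted CD9+/c-Kit- founder cells. Whether the libraries of a group are separate cultures is not stated. The p-values therefore cover only how far these libraries spread, and that spread may be technical.

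Wnt proteins are lipid-modified secreted ligands. They bind Frizzled receptors with the co-receptors LRP5 or LRP6, which stops the Axin complex from degrading beta-catenin and lets beta-catenin enter the nucleus and act through TCF/LEF factors. A separate branch, for which WNT5A and the receptor ROR2 are well known, works without beta-catenin on cell polarity and movement. In the testis, Wnt signals have been tied to the proliferation and differentiation of undifferentiated spermatogonia, and SG in the tissue receive them from their neighbours as well as from one another.

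The libraries held from 7484560 reads (SG replicate 1) to 26953654 reads (SG replicate 2). Values are normalized counts, in which 1 read is worth 3.26 units in SG replicate 1 and from 0.626 to 0.725 units in the other libraries. The SG libraries lay much farther apart (SD of their log2 difference over genes, 0.81) than the dSG libraries (0.20), and their difference followed the GC content of the gene (Spearman's rho 0.73 over 14102 genes, given as a description). Kit, Gfra1, Stra8 and Etv5, the genes set as the check of the labels, differed as the labels say. Kit, the receptor that marks dSG, had normalized counts of 319 and 347 in SG and 5825 and 5921 in dSG. Gfra1, the GDNF receptor of SG, had 4491 and 4414 in SG and 1667 and 1629 in dSG. Stra8, a gene induced by RA, stood at 134 and 37.8 in SG and at 12205 and 12236 in dSG, and Etv5, a GDNF-responsive factor of SG, at 6035 and 5507 against 682 and 763. Longer marker lists matched in part in the limma fit given below. Of 15 tested SG markers, 8 were called lower in dSG (4.91% of all genes) and 0 higher. Of 9 tested dSG markers, 3 were called higher (1.16% of all genes) and 0 lower. Rarg, Dmrtb1 and Sox3 of the dSG list had log2 fold changes of -1.30, -0.80 and -0.62, none called.

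Wnt5a, Sfrp2, Lef1 and Fzd2 fell in dSG, by 10.4-, 8.04-, 4.89- and 3.70-fold on the log2(value + 4) scale. None of the 49 chosen genes passed the limma test in the other direction. Of the 49 genes, 36 passed the filter, which asked for 20 or more normalized counts in 2 or more libraries, and 13 did not. In the limma fit across all 14108 genes tested, with Benjamini-Hochberg adjustment, 0 of the 36 were called higher in dSG, where the background was 1.16%, and 4 (11.1%) were called lower, where the background was 4.91%. At an unadjusted p under 0.05, 7 were higher (19.4%, background 10.5%) and 16 were lower (44.4%, background 16.3%). The 16 include Rnf43 and Lgr5, which passed the filter through the SG libraries alone and so had to be lower. Without them, 14 of 34 were lower. Among the 34, Wnt5a and Lef1 reached 20 in both SG libraries but in only 1 dSG library, so their passing hung on SG. The median log2 fold change of the 36 was -0.71 (-0.68 for the 34), and that of all genes tested was 0.01. Fewer cells of a type and less RNA per cell cannot be told apart in these bulk samples.

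DESeq2 on the recovered whole reads called 3 of the 36 higher, namely Dkk3, Fzd6 and Lgr4 (background 3.32%), and 10 lower (background 10.4%). edgeR called 0 higher and 5 lower, adding Fzd10 to the same 4 (backgrounds 1.4% and 6%). After correction of each library for GC content, the median of the 36 was -0.37, and limma called 3 higher (background 8.12%) and 13 lower (background 13.1%). The counts moved with the library left out: without SG replicate 1 there were 8 higher calls (background 31%) and 20 lower calls (background 28.8%), and without SG replicate 2 there were 10 (background 38.5%) and 23 (background 42.7%). In both fits the spread came from the dSG pair alone. Without dSG replicate 1, 0 were called higher (background 0.361%) and 2 lower (background 3.1%). Wnt5a, Sfrp2, Lef1 and Fzd2 were called without SG replicate 1 too, with log2 fold changes of -3.26, -2.55, -2.28 and -1.52. Groups were fully apart, with both dSG libraries above both SG libraries, in 10 of the 36 genes (27.8%, background 33.2%), and in the reverse order in 22 (61.1%, background 32.7%), or in 20 of 34 without Rnf43 and Lgr5.

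**Figure D1:**
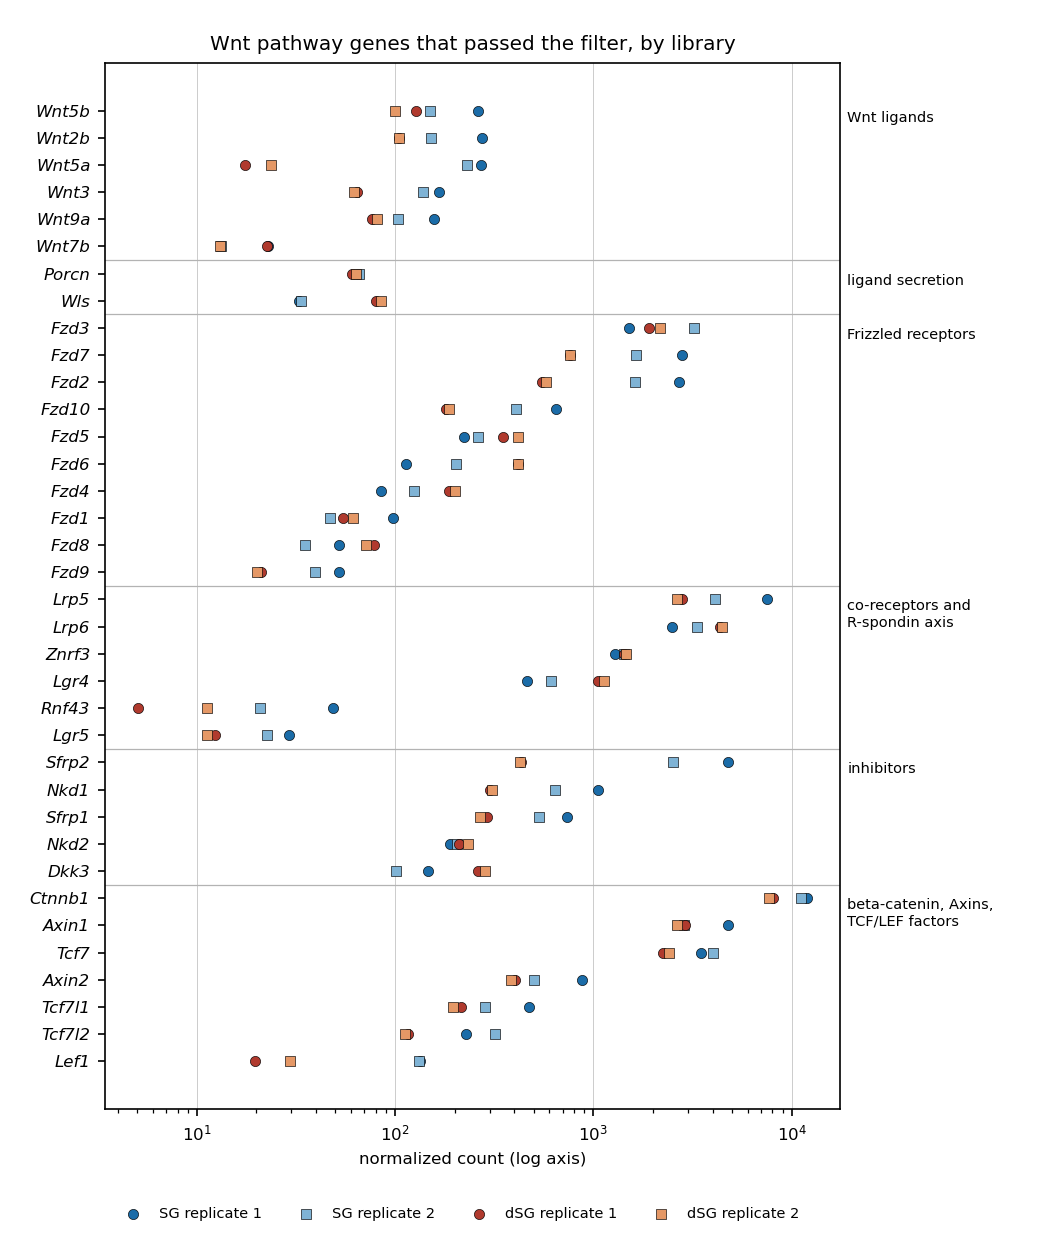
Normalized counts (log axis) of the 36 Wnt pathway genes that passed the filter, ordered by role, with 1 point for each of the 4 libraries. The points of Wnt5a lie at 270 and 230 in SG and at 17.4 and 23.8 in dSG, and those of Fzd3 overlap between the groups.

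Few Wnt ligands were expressed in these cells. Of 18 ligand rows, 12 stayed under the filter: Wnt1, Wnt2, Wnt3a, Wnt4, Wnt6, Wnt7a, Wnt8a, Wnt8b, Wnt9b, Wnt10a, Wnt11 and Wnt16. Their highest value was 42.4 normalized counts, or 13 reads, for Wnt9b in SG replicate 1, and in no library did any of them exceed 33 reads. Wnt1, the founding member of the family, had 1 read in SG replicate 2 and 0 in the other libraries.

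The 6 ligands that passed were Wnt5a, Wnt5b, Wnt2b, Wnt3, Wnt9a and Wnt7b. Wnt5a (ENSMUSG00000021994, GRCm38 chromosome 14, 28504750 to 28527448, plus strand), the best-known ligand of the branch without beta-catenin, had normalized counts of 270 and 230 in SG and 17.4 and 23.8 in dSG. Both dSG libraries were far below both SG libraries. The log2 fold change was -3.38 (SE 0.28, 95% confidence interval -4.12 to -2.64; limma adjusted p = 0.0249). The call stood in the 15 alternatives in which the gene was tested. Per kb of exon, Wnt5a made up 10.2% and 12.8% of the summed ligand level in SG and 1.37% and 2.17% in dSG.

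Wnt3, a ligand of the beta-catenin branch, stood at 166 and 138 in SG and at 64.6 and 62.0 in dSG, with no overlap. Its log2 fold change of -1.21 (SE 0.24) did not pass (limma adjusted p = 0.0665). Wnt9b, its neighbour on chromosome 11, lies 24.3 kb away and was under the filter. Wnt2b had 274 and 151 in SG and 105 and 105 in dSG, and Wnt5b, the close relative of Wnt5a, had 261 and 150 against 127 and 99.5. For neither did the difference pass: the log2 fold changes were -0.93 (95% confidence interval -1.87 to 0.01) and -0.79 (-1.74 to 0.15), and SG replicate 1 was well above SG replicate 2 in both. Per kb of exon, Wnt5b was above Wnt5a in every library, with 28.9% and 24.7% of the summed ligand level in SG and 29.4% and 26.8% in dSG.

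Wnt5b is shown by sequence because the window before 1 of its 3 RefSeq starts, which lies inside the gene, holds the letters CTTTGAT, a core recognised by TCF/LEF factors. Printed are the 250 bases before that start (GRCm38.p6, chr6:119449387-119449636, minus strand), 5′ to 3′. Capitals mark CTTTG, read on either strand, and CTTTGAT, which begins 71 bases before the start.
Wnt5b: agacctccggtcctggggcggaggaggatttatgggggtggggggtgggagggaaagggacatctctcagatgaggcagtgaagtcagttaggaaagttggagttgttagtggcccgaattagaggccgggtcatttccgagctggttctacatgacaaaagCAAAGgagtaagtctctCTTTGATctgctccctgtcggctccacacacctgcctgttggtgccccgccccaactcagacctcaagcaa

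Ligands need acylation and transport before they leave the cell. Porcn, the acyltransferase that attaches the lipid, had 65.2 and 66.1 normalized counts in SG and 60.9 and 63.2 in dSG. The difference was small (log2 fold change -0.08, 95% confidence interval -0.72 to 0.57), and its sign changed to plus under quantile normalization (0.07) and after GC correction (0.27). Wls, the carrier that takes the lipid-bearing ligand to the cell surface, had 32.6 and 33.4 in SG and 80.5 and 85.1 in dSG. Its libraries agreed closely within each group, and both dSG libraries were above both SG libraries. The log2 fold change of 1.23 (SE 0.25) did not pass (limma adjusted p = 0.0684), and after GC correction it was 0.69. In SG replicate 1 the Wls value rested on 10 reads.

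Wls is shown as the secretion gene that was higher in dSG. Its window before the RefSeq start (GRCm38.p6, chr3:159839400-159839649, plus strand) holds CTTTG once on each strand, in capitals, and no CTTTGAT.
Wls: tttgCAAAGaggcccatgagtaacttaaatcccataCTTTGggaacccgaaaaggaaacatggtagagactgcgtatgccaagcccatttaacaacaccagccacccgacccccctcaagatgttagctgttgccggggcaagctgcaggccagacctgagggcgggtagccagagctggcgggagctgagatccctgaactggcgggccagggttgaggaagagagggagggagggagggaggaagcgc

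All 10 Frizzled genes passed the filter. In limma, 0 were called higher in dSG (background 1.16%) and 1 lower (10%, background 4.91%). At an unadjusted p under 0.05, 3 were higher (30%, background 10.5%) and 4 lower (40%, background 16.3%). Both dSG libraries lay below both SG libraries for 4 receptors and above them for 4, shares of 40% each that are not far from the backgrounds of 32.7% and 33.2%. Fzd2 (ENSMUSG00000050288, GRCm38 chromosome 11, 102604396 to 102608058, plus strand) was the 1 receptor called. It had normalized counts of 2689 and 1624 in SG and 549 and 576 in dSG. The dSG libraries were nearly equal, and both lay below both SG libraries. The log2 fold change was -1.89 (SE 0.30, 95% confidence interval -2.68 to -1.09; limma adjusted p = 0.0428). This call was close to the limit: the adjusted p was 0.0919 without dSG replicate 1, 0.0758 without dSG replicate 2, 0.0501 with no filter and 0.0601 with the stricter filter.

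Fzd7, of the same subfamily as Fzd2 and a receptor of stem cells in several tissues, had 2803 and 1645 in SG and 761 and 765 in dSG. Fzd10 had 649 and 409 against 181 and 187, and Fzd9 had 52.1 and 39.6 against 21.0 and 20.0. The groups of these genes did not overlap, but their log2 fold changes of -1.49, -1.46 and -1.01 did not pass in limma (adjusted p 0.0704, 0.0665 and 0.128). DESeq2 called Fzd7 and Fzd10, with adjusted p of 0.000517 and 0.00204, and did not call Fzd9. For Fzd9, GC correction reduced the log2 fold change to -0.30.

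Fzd6, a receptor known for tissue polarity, had its higher values in dSG. Its normalized counts were 114 and 202 in SG and 418 and 418 in dSG, so that both dSG libraries exceeded both SG libraries. The log2 fold change was 1.44 (SE 0.33; limma adjusted p = 0.0842; DESeq2 adjusted p = 0.0104). Fzd4, also the receptor for Norrin, had 84.7 and 125 in SG and 188 and 201 in dSG, and Fzd5 had 222 and 261 against 349 and 415. Both were higher in both dSG libraries, with log2 fold changes of 0.89 and 0.65 that did not pass (limma adjusted p 0.146 and 0.166).

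Fzd3, the Frizzled gene with the highest normalized count, had 1515 and 3215 in SG and 1913 and 2158 in dSG. The dSG values lay between the SG values, and the log2 fold change was -0.12 (95% confidence interval -1.19 to 0.95). Its direction hung on 1 library: the log2 fold change became 0.42 when SG replicate 2 was left out and -0.66 when SG replicate 1 was, and after GC correction it was -0.79 and was called. Fzd3 also had the lowest GC content of the 36 genes, 40.3%. Fzd1 and Fzd8 had at most 97.8 normalized counts, and neither passed.

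The make-up of the receptor set can be read per kb of exon. Fzd2, Fzd7 and Fzd10 together made up 86.5% and 70.8% of the summed Frizzled level in SG and 51.6% and 50.2% in dSG. Fzd4, Fzd5, Fzd6 and Fzd8 together made up 4.30% and 7.92% in SG and 24.6% and 24.7% in dSG. Fzd6 alone went from 1.32% and 3.19% in SG to 11.99% and 11.35% in dSG. The summed Frizzled level per kb was 1793 and 1316 in SG and 723 and 764 in dSG. These shares were grouped after the values were seen and are a description without a test, since exact permutation of 2 against 2 libraries cannot reach 0.05.

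**Figure D2:**
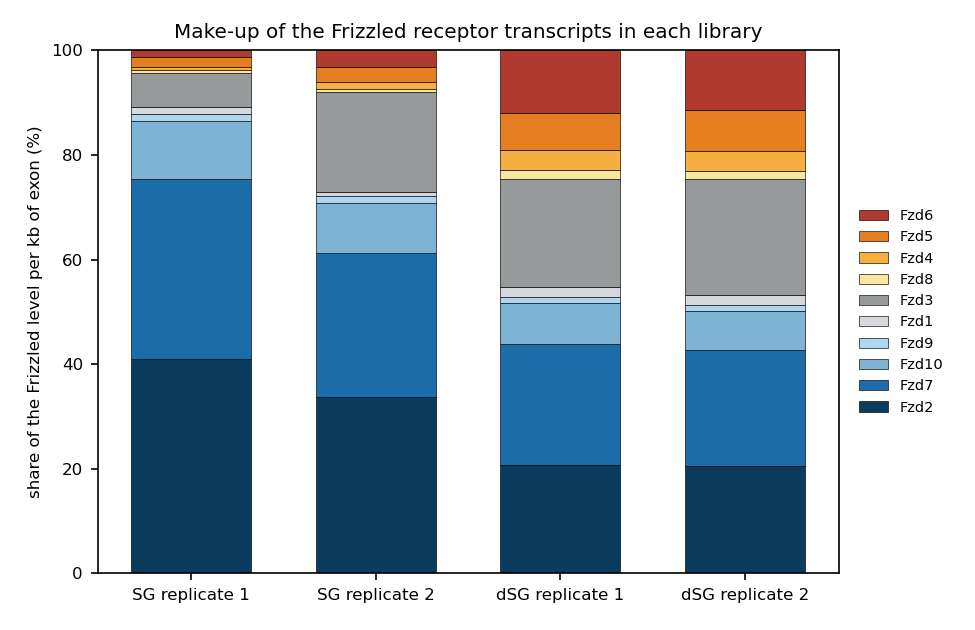
Share (%) of each of the 10 Frizzled genes in the summed Frizzled level per kb of exon, with 1 bar for each library. Fzd2, Fzd7 and Fzd10 (dark to light blue) fill 86.5% and 70.8% of the SG bars and 51.6% and 50.2% of the dSG bars, and Fzd6 (red) fills 11.99% and 11.35% of the dSG bars.

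The co-receptors stood in opposite order in the groups. Lrp5 had normalized counts of 7512 and 4118 in SG and 2796 and 2652 in dSG, and Lrp6 had 2503 and 3323 against 4334 and 4465. Neither gene overlapped between groups. The log2 fold changes were -1.03 for Lrp5 (95% confidence interval -1.92 to -0.14; limma adjusted p = 0.151) and 0.61 for Lrp6 (0.04 to 1.18; adjusted p = 0.173), and neither passed. DESeq2 called Lrp5 (adjusted p = 0.0292) and so did limma after GC correction (0.0375), while neither called Lrp6. Per kb of exon, Lrp5 was 80.8% and 63.5% of the sum of both in SG and 47.5% and 45.5% in dSG. Lrp5 was the larger share in both SG libraries and the smaller one in both dSG libraries.

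R-spondins raise Frizzled at the cell surface by binding LGR receptors and removing the ubiquitin ligases RNF43 and ZNRF3. Lgr4, the broadly expressed R-spondin receptor, had 463 and 610 normalized counts in SG and 1058 and 1135 in dSG. Both dSG libraries were above both SG libraries, with a log2 fold change of 1.04 (SE 0.22; limma adjusted p = 0.0745; DESeq2 adjusted p = 0.0243). Lgr5, a stem cell marker of the gut, was near the detection limit with 29.3 and 22.7 in SG and 12.3 and 11.3 in dSG. Rnf43 had 48.9 and 20.8 in SG and 5.08 and 11.3 in dSG. Both genes passed the filter through the SG libraries alone, which fixes their direction, so their log2 fold changes of -0.92 and -1.62, neither of them called, are given as values only. Znrf3, with 1281 to 1465 in the 4 libraries, had a log2 fold change of 0.10.

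Lgr4 is printed as the R-spondin receptor with higher values in dSG. The window (GRCm38.p6, chr2:109917397-109917646, plus strand) has no CTTTG on either strand and therefore no capitals.
Lgr4: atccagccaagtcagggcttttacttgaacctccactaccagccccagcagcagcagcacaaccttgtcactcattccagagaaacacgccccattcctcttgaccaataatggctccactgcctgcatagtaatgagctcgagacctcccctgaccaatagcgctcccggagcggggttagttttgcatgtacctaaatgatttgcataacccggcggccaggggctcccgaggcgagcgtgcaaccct

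Among the inhibitors, Sfrp2 (ENSMUSG00000027996, GRCm38 chromosome 3, 83766321 to 83774316, plus strand), a secreted protein that binds Wnts and Frizzleds, had the highest level per kb of exon in SG. Its normalized counts were 4784 and 2535 in SG and 433 and 426 in dSG. Both dSG values were far below both SG values, although the SG libraries themselves were far apart. The log2 fold change was -3.01 (SE 0.35, 95% confidence interval -3.94 to -2.08; limma adjusted p = 0.0276), and the call stood in all 16 alternatives. Annotated transcripts of the opposite strand cover 16.1% of the exon bases of Sfrp2, 13.7% of Lef1, 17.8% of Fzd5 and 14.6% of Ctnnb1. Smaller overlaps exist for other genes of the set, Wnt5a among them (4.58%). Whether counting used strand is not given in the sources used here.

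Sfrp2 is shown because it was called in every alternative. The window before its RefSeq start (GRCm38.p6, chr3:83766071-83766320, plus strand) has no CTTTG and no capitals.
Sfrp2: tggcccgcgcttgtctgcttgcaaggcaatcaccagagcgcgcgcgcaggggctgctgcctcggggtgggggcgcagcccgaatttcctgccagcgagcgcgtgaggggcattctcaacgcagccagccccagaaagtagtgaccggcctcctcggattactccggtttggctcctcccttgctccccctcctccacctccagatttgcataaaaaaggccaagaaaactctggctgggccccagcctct

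Sfrp1, of the same family, had 737 and 533 in SG and 290 and 269 in dSG. Nkd1, a cytoplasmic antagonist that binds Dishevelled and is itself a common target of the pathway, had 1059 and 639 against 300.3 and 307. Neither overlapped between groups. Their log2 fold changes of -1.15 (SE 0.25) and -1.43 (SE 0.30) did not pass in limma (adjusted p 0.0732 and 0.0733), while DESeq2 gave adjusted p of 0.0160 and 0.00176. Dkk3, a divergent Dickkopf protein, was higher in dSG with 147 and 101 in SG and 262 and 283 in dSG. Its log2 fold change was 1.13 (SE 0.27; limma adjusted p = 0.0899; DESeq2 adjusted p = 0.0351). Nkd2 ranged from 189 to 233 and did not pass, and Dkk2 had at most 1 read in a library.

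Inside the cell, Ctnnb1, which encodes beta-catenin, had the highest normalized counts of the whole set, 11892 and 11107 in SG and 8068 and 7724 in dSG. The groups did not overlap, and the log2 fold change of -0.54 (95% confidence interval -0.999 to -0.084) did not pass (limma adjusted p = 0.146). Axin1, a scaffold of the destruction complex, had 4761 and 2851 in SG and 2893 and 2642 in dSG. Its groups overlapped, and its log2 fold change of -0.41 became 0.03 after GC correction. Axin2, the feedback gene most often used as a readout of beta-catenin activity, is named after its values were seen. It had 877 and 503 in SG and 403 and 384 in dSG, and its log2 fold change of -0.75 (95% confidence interval -1.61 to 0.11) did not pass (limma adjusted p = 0.224).

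Lef1 (ENSMUSG00000027985, GRCm38 chromosome 3, 131110471 to 131224356, plus strand), a nuclear partner of beta-catenin and in many tissues also its target, had 134 and 133 normalized counts in SG and 19.6 and 29.4 in dSG. The SG libraries were nearly equal here, and both dSG libraries were far below them. The log2 fold change was -2.29 (SE 0.30, 95% confidence interval -3.08 to -1.50; limma adjusted p = 0.0317). Without dSG replicate 1 it was -2.04 and was no longer called (limma adjusted p = 0.126). In SG replicate 1 the value rested on 41 reads.

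Lef1 has 4 RefSeq windows, and the first is shown because its gene was called lower (GRCm38.p6, chr3:131110047-131110296, plus strand). It holds CTTTG once, in capitals, from 161 to 157 bases before the start. The other windows of Lef1, the next of which largely overlaps the first, hold CTTTG 2, 1 and 3 times.
Lef1: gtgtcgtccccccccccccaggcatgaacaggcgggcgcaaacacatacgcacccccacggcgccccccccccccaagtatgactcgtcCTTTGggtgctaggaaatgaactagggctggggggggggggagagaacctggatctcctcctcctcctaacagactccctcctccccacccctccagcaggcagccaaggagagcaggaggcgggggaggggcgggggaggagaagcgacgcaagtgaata

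Tcf7, which encodes TCF1, was the main member of the TCF/LEF family in every library, with 89.1% to 93.2% of the family's level per kb of exon. It had 3484 and 3990 normalized counts in SG and 2256 and 2400 in dSG. Tcf7l2, which encodes TCF4, had 228 and 320 against 116 and 112. Neither overlapped between groups, and the log2 fold changes of -0.68 (SE 0.18) and -1.22 (SE 0.26) did not pass (limma adjusted p 0.107 and 0.0757). DESeq2 called Tcf7l2 (adjusted p = 0.0241) and not Tcf7. Lef1, the called gene, made up 1.02% and 0.919% of the family's level in SG and 0.240% and 0.341% in dSG. Tcf7l1 did not pass either.

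**Figure D3:**
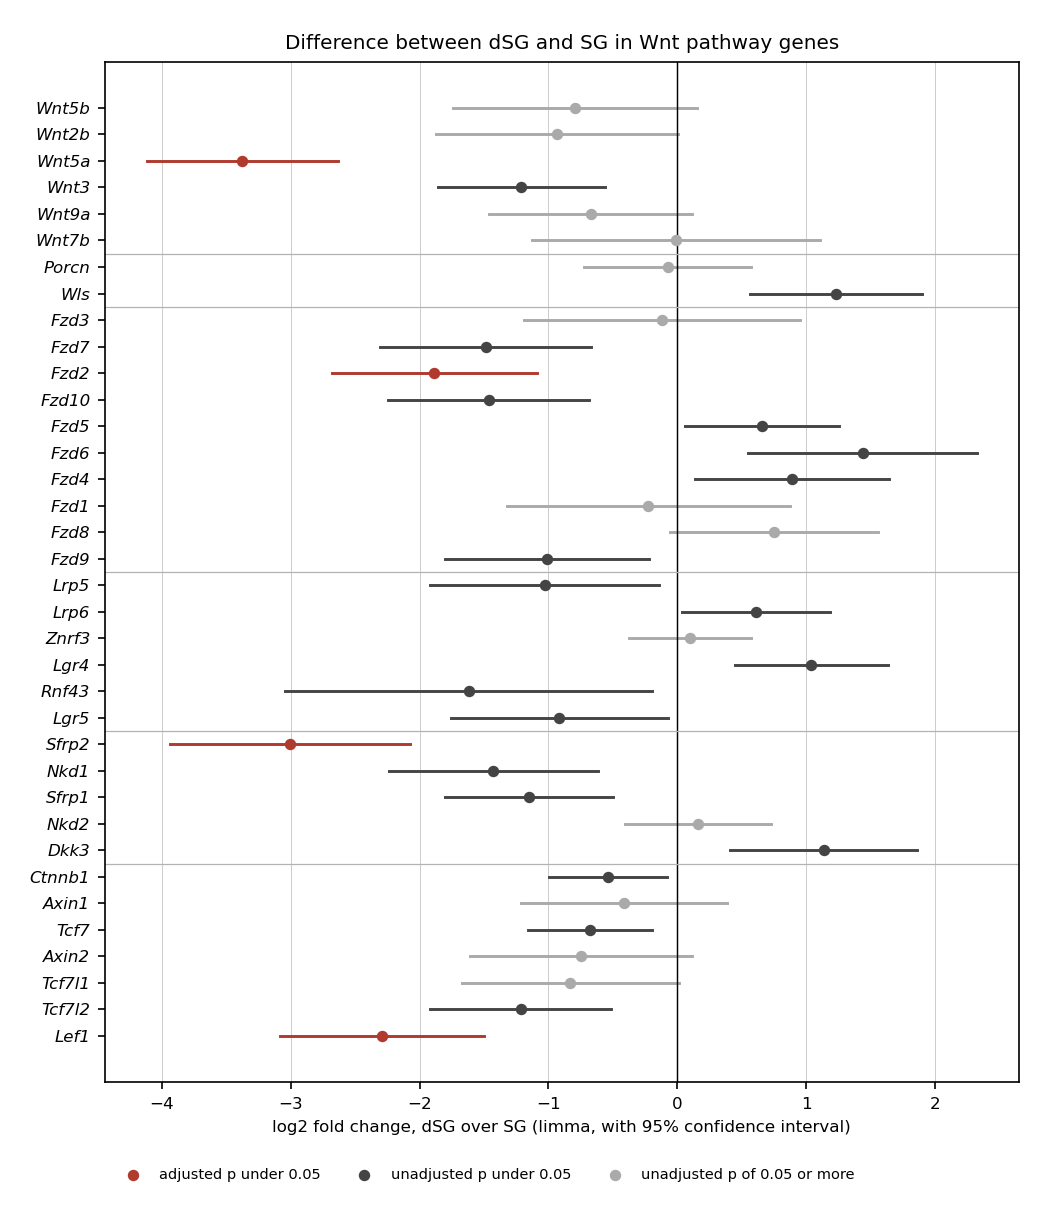
Log2 fold change of dSG over SG (limma, on the log2(value + 4) scale) for the 36 genes that passed the filter, as points with 95% confidence intervals. The points of the 4 called genes, in red, run from -3.38 for Wnt5a to -1.89 for Fzd2, with intervals that lie below 0, and Fzd6 has the highest point at 1.44.

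The promoter windows were searched for sequences that TCF/LEF factors and RA receptors recognise. RefSeq windows (GRCm38.p6) matched 33 of the 49 genes with 43 windows of 250 bases, and Wnt5a, Fzd2 and Fzd6 had no entry. CTTTG was found on either strand in 19 of the 43 windows (44.2%) and in 48.7% of all 32536 windows. Overlapping windows of the same gene, as for Lef1, were counted separately. CTTTGAT, which contains CTTTG, was found in 2 windows, those of Wnt5b and Wnt11 (4.65%, against 3.21% of all windows). CTTTGAA, which also contains it, was found in 0 (against 4.47%). The DR5 retinoic acid response element, the direct repeat that RA receptors recognise, was found in 0 (against 0.0891%). A match is a description of the letters only.

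The wider pathway was read from lists of further genes. Of 26 tested genes reported as targets of beta-catenin in other tissues, 11 (42.3%, background 4.91%) fell in dSG and 1 rose (Id2, which passed the filter through the dSG libraries alone), and the median log2 fold change was -1.65. Ccnd1, the G1 cyclin D1, had normalized counts of 4119 and 3124 in SG and 411 and 394 in dSG (log2 fold change -3.14, SE 0.22). Nr5a2, a nuclear receptor, had 808 and 719 against 45.7 and 65.1 (-3.71, SE 0.26). Both fell with limma adjusted p of 0.0237. T, which encodes Brachyury, had 212 and 151 against 6.53 and 6.26 and passed the filter through the SG libraries alone. It is counted in the 11 although it had to be lower. Msx1, not called, had 143 and 51.0 against 7.98 and 15.0 and passed in the same way. Gbx2, not called, passed through the dSG libraries alone, as Id2 did. The median of -1.65 includes all of these genes. Msx2, a homeobox factor, fell from 362 and 313 to 45.0 and 42.6 (log2 fold change -2.83, SE 0.23; limma adjusted p = 0.0244). The 11 lower calls became 18 without SG replicate 1, 19 without SG replicate 2 and 9 without either dSG library in turn. Many of these genes also answer to other signals, and Sox9, 1 of the 11 and named after its values were seen, also stood in the Sertoli marker list.

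A further list, of secreted regulators and some membrane proteins such as Adgra2, had 2 of 16 tested genes called higher (12.5%, background 1.16%). In it, 3 were called lower (18.8%, background 4.91%), and the median log2 fold change was -0.33. Adgra2, a co-receptor for WNT7 ligands, rose from 114 and 63.6 in SG to 579 and 569 in dSG (log2 fold change 2.69, SE 0.34; limma adjusted p = 0.0305). Frzb, a secreted Frizzled-related inhibitor, had 3.26 and 3.15 in SG and 58.0 and 36.3 in dSG. Sost, an LRP5 and LRP6 inhibitor, had 192 and 75.5 against 5.80 and 2.50. Frzb passed the filter through the dSG libraries alone and Sost through the SG libraries alone, so their calls were bound to have these directions. Rspo2, a ligand of the LGR receptors, fell from 1444 and 1203 to 523 and 521 (log2 fold change -1.33, SE 0.20; limma adjusted p = 0.0381), in the same libraries in which Lgr4 was higher in dSG.

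Receptors and planar polarity genes outside the Frizzled family had 0 of 17 tested genes called higher (background 1.16%) and 3 called lower (17.6%, background 4.91%), with a median of -0.34. With p taken unadjusted at under 0.05 in limma there were 4 higher (23.5%, background 10.5%) and 7 lower (41.2%, background 16.3%). Ror2, the receptor tyrosine kinase for WNT5A, had 658 and 361 in SG and 34.8 and 33.2 in dSG, a log2 fold change of -3.69 (SE 0.36; limma adjusted p = 0.0254). Prickle1, a cytoplasmic polarity protein, fell from 2865 and 2283 to 305 and 349 (-2.96, SE 0.22; adjusted p = 0.0237). Daam2, a formin that works downstream of Dishevelled, fell from 277 and 281 to 84.9 and 95.8 (-1.59, SE 0.22; adjusted p = 0.0340). Wnt5a and Ror2, ligand and receptor, were both lower in both dSG libraries.

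Dishevelled, GSK3, APC, casein kinase 1 and their partners carry the signal in the cytoplasm. Of 28 cytoplasmic transducers, 1 was called higher (3.57%, background 1.16%) and 0 were called lower (background 4.91%). The 1 was Cxxc4, an inhibitor of Dishevelled, with 3.26 and 3.78 in SG and 36.3 and 38.8 in dSG. It passed the filter through the dSG libraries alone and so had to be higher. At an unadjusted p under 0.05 in limma, 2 were higher (7.14%, background 10.5%) and 2 lower (7.14%, background 16.3%). The median was 0.09. Of 23 nuclear cofactors, 1 fell (4.35%, close to the background of 4.91%): Ctbp2, a corepressor, with 1594 and 1279 in SG and 592 and 596 in dSG (log2 fold change -1.26, SE 0.20; limma adjusted p = 0.0444). The call of Ctbp2 was lost with no filter, with the stricter filter and in limma without trend. At an unadjusted p under 0.05, 0 nuclear cofactors were higher (background 10.5%) and 6 lower (26.1%, background 16.3%). DESeq2 called 5 of them lower (background 10.4%). The median of that list was -0.10.

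**Figure D4:**
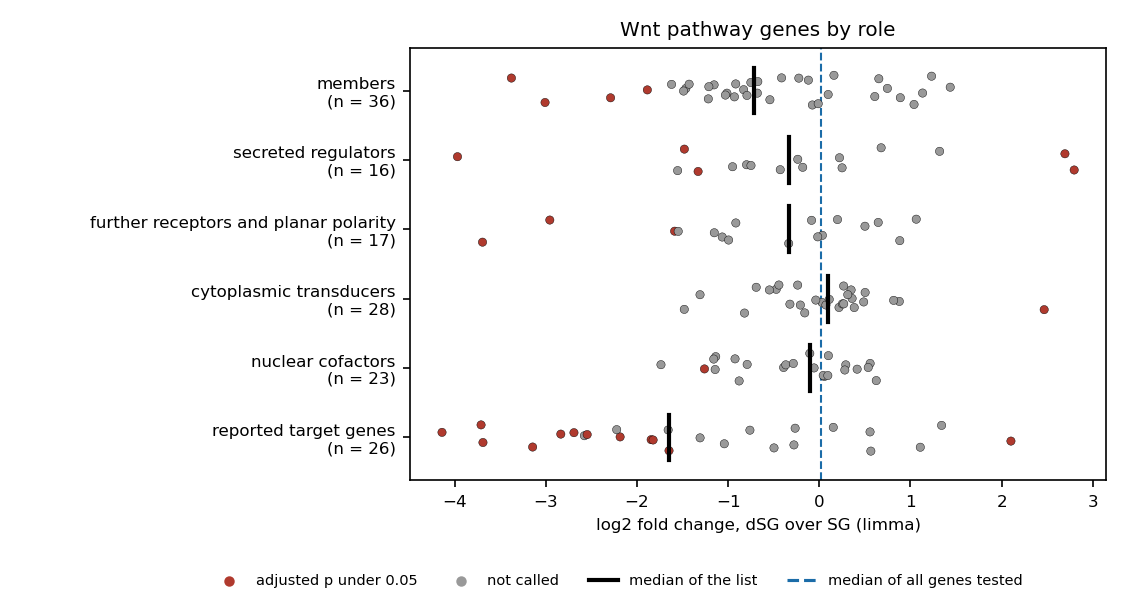
Log2 fold change of dSG over SG (limma) for each tested gene of the main set (n = 36) and of 5 further pathway lists, with called genes in red, list medians as black bars and the median of all genes tested as a dashed line. The bar of the reported target genes stands at -1.65 and that of the cytoplasmic transducers at 0.09. Genes that passed the filter through a single group, which fixes their direction, are included.

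Several Wnt pathway genes, Wnt5a and Sfrp2 among them, are also expressed by fibroblasts, the usual feeder cells of spermatogonial cultures. The methods mention feeder cells for the proteomics, and how far they were kept out of the RNA samples is not given in the sources used here. Of 18 fibroblast and feeder markers, 10 passed the filter. In dSG, 2 were called higher (Thbs1 and Fbn1, background 1.16%) and 1 lower (Pdgfra, background 4.91%). Thbs1 had 45.6 and 71.1 in SG and 258 and 265 in dSG, and Fbn1 had 218 and 174 against 524 and 553. At an unadjusted p under 0.05, 3 were higher (background 10.5%) and 6 lower (background 16.3%). The 3 include Col1a2, which passed the filter through the dSG libraries alone and so had to be higher. Both dSG libraries lay below both SG libraries in 7 markers (background 32.7%) and above them in 3 (background 33.2%). The median log2 fold change was -1.38. Pdgfra had 2229 and 2298 in SG and 345 and 349 in dSG, Twist1 had 248 and 119 against 36.3 and 31.3, and Col6a1 had 147 and 69.2 against 19.6 and 20.0. Their summed normalized count was 35443 and 17627 in SG and 8110 and 8046 in dSG, mostly from Col5a1, Fn1 and Col1a1. None was at 0 in all libraries. Others of the list were at or near 0 in SG: Dcn and Lum had 0 reads in SG replicate 1 and 0.629 normalized counts in SG replicate 2, S100a4 had 0 in both, and Twist2 had at most 3.78. In dSG, Dcn had 5.08 and 4.38 and Lum had 8.70 and 6.88.

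Epithelial markers were lower in dSG as well, with all 4 tested called lower (background 4.91%). Krt8, 1 of the 4, had 280 and 105 in SG and 3.63 and 3.76 in dSG. It passed the filter through the SG libraries alone and so had to be lower. The epithelial markers summed to 4579 and 4015 in SG against 1734 and 1652 in dSG, mostly from Epcam, which SG express. Sertoli markers summed to 854 and 548 in SG and 268 and 279 in dSG, endothelial markers to 544 and 574 against 216 and 252, and peritubular markers to 326 and 199 against 115 and 143. Leydig and macrophage or blood markers summed to between 215 and 522 in every library. Ddx4, a germ cell gene, had 3601 and 5696 in SG and 5392 and 5712 in dSG. The part of these markers in the fall of Wnt5a, Sfrp2, Lef1 and Fzd2 was not tested.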

How the data were processed

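RNA-seq values of 2 SG and 2 dSG libraries were used. The authors used Subread for alignment to GRCm38 and featureCounts 1.5.3 for counting, tools that the submitters' processing notes name too. Annotation, strandedness and multi-mapping settings of the counting: not given in the sources used here. The deposited signal per gene is a normalized count: the authors divided each library's reads by its size factor. The table is called RPKM, but dividing each library by its smallest step gave whole reads for 100% of values (tolerance 0.01). The deposited log2 fold changes, their errors, the deposited test score and the deposited p-values are the authors' own comparison made with DESeq2, and were not used.

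Limma-trend (limma 3.58.1, R 4.3.3) was fitted to log2(normalized count + 4) for genes that reached 20 in 2 or more libraries, with condition as the only term and all 4 libraries. Tests were taken in both directions, with Benjamini-Hochberg adjustment over 14108 genes and calls at an adjusted p under 0.05. edgeR 4.0.16 and DESeq2 1.42.0 were run on the recovered reads. Alternatives also covered scaling, filters, pseudocounts, GC content, the replicate block and each library left out. The limma step was tested on simulated data. Gene coordinates, exon lengths and GC content came from GENCODE M21, which held 19980 of 19991 IDs, and promoter sequences from RefSeq (GRCm38.p6). Single-library intervals for counting error were not computed.

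The genes and lists were chosen with earlier results of these data known. A gene was given in full when it was called, when its unadjusted p was under 0.05 and its groups did not overlap, or when it was among the 2 highest of its role group. Genes of the further lists were named when called, up to 4 a list by smallest p, and Kit, Stra8, Gfra1 and Etv5 were given as the check of the labels. Dkk1 and Wnt10b were not analysed here.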

Additional observations from a re-analysis of the deposited data

How the results depend on the processing

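Of 442 values of the 28 named genes under the alternatives, 339 kept their direction and their side of the threshold, 92 kept their direction and passed it, 5 kept their direction and no longer passed it, and 6 changed sign. Axin1 changed sign after GC correction with and without the replicate block (log2 fold change 0.027), Porcn under quantile normalization (0.072) and in both GC-corrected fits (0.27), and Fzd3 when SG replicate 2 was left out (-0.66 to 0.42 over the libraries left out). Fzd2 lost its call in 4 alternatives and Lef1 in 1. The 92 include fits that called more of all genes too, such as GC correction (1146 higher and 1854 lower, against 164 and 692). They also include the fits without an SG library, where the spread came from the dSG pair alone. For the reversed and lost calls the cause was not tested.

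Against 0 Wnt pathway genes called higher and 4 called lower, limma without trend called 1 higher, DESeq2 called 3 and 10, GC correction 3 and 13, the replicate block 4 and 12, and GC correction with the replicate block 5 and 13. The stricter filter, 40 in every library, left 1 lower call, Sfrp2. It removed Wnt5a and Lef1 before the test because of their low dSG values, and Fzd2 was tested and not called. Leaving out each library in turn gave 0 to 10 higher and 2 to 23 lower. Over all genes, against 164 higher and 692 lower, DESeq2 called 468 and 1468, GC correction 1146 and 1854, the replicate block 1150 and 1790, both together 1705 and 2371, the stricter filter 47 and 273, and no filter 108 higher, while leaving out each library gave 41 to 5431 higher and 434 to 6021 lower. The 11 lower calls among reported target genes became 7 with the stricter filter and 18 under GC correction with the replicate block, and 9 to 19 when each library was left out, alternatives added for this list after the data were seen. The stricter filter tested only 17 of the reported target genes, against 26 in the main fit. The 7 and the 11 are therefore counts out of different totals. The fits with 18 or 19 lower calls in this list also called more of all genes lower. Deviations of same-numbered libraries correlated at 0.23 across genes, but with 2 pairs and no stated pairing they share only a number.

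SG replicate 1 was the library with the fewest reads, 7484560, of which 18.3% came from Lars2. A normalized count of 20 stood for 7 reads there and for 28 to 32 reads in the other libraries, so ligands under the filter were not measured well enough to compare.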
